A study of Mus musculus with 5 samples.

Results

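The genes described here are the brakes of the cell cycle: the 3 Cip/Kip inhibitor genes Cdkn1a, Cdkn1b and Cdkn1c, the 4 INK4 inhibitor genes Cdkn2a, Cdkn2b, Cdkn2c and Cdkn2d, and the 3 pocket protein genes Rb1, Rbl1 and Rbl2. They were chosen by symbol, and all 10 were found among the 25549 gene models of the authors' deposited table. A p-value was deposited for 8 of them, and for 24071 gene models in all. RNA came from cultured mast cells that had been derived from mouse bone marrow over 6 to 8 weeks with 50 ng/mL recombinant mouse interleukin-3 and no other treatment. All mice were C57BL/6 and all carried Cpa3-Cre, a Cre recombinase under the Cpa3 promoter, which is active in mast cells. The control group carried Cpa3-Cre alone (n = 2 samples), and the other group carried Cpa3-Cre;miR-9∆fl/∆fl and is called the miR-9 line (n = 3 samples). Mice were matched for age and sex, and neither is stated. The labels do not say what recombination does to miR-9, nor whether the samples within a group are separate mice. The p-values therefore reflect sample-to-sample spread that could be technical.

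Progress from G1 into S phase is driven by cyclin-dependent kinases (CDKs). INK4 proteins bind CDK4 and CDK6 and keep D-type cyclins from activating them, while Cip/Kip proteins bind cyclin-CDK complexes, above all those of CDK2. The pocket proteins pRb, p107 and p130 hold E2F transcription factors in check until CDKs phosphorylate them, and E2F factors then switch on the genes of DNA replication and mitosis. Some brakes are themselves E2F targets, p107 among them, so that RNA of a brake can be abundant in dividing cells. Mast cells grown in interleukin-3 keep dividing for weeks, and p27 and p21 act as inhibitors in many blood cell lineages.

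Every fold change and unadjusted p-value below is that of the authors' deposited table, and a positive log2 fold change means a higher value in the miR-9 line. Adjusted p-values are Benjamini-Hochberg values computed here over all 24071 deposited p-values, and a gene was called when its adjusted p was under 0.05. Genes with a p-value are called tested genes. Values per sample, standard errors and absolute levels were not used here, since the names of the table's 5 columns of values per library match no sample's labels. It is therefore not given how many samples share a direction, and levels of different genes are not compared. The stated depth was about 70000000 reads per sample. In bulk RNA of this kind, fewer cells of a type and less RNA per cell cannot be told apart. Gm25641, the gene model at a miR-9 hairpin, stood at 4.50 by the authors' deposited table, or 22.6-fold higher (Benjamini-Hochberg adjusted p = 8.74e-18). Because the labels do not say what recombination does to miR-9, no direction was set beforehand, and this value is no check of the genotype. All 15 mast cell markers of a fixed list had a p-value, 11 were positive, and their median log2 fold change was 0.09 by the authors' deposited table. Of these, the tryptase gene Tpsb2 rose (1.60, adjusted p = 0.0149), and the chymase gene Cma1 stood at 0.97 (p = 0.0176, adjusted p = 0.442), by the authors' deposited table. None of 8 neutrophil markers had a p-value, and 1 of 7 monocyte and macrophage markers did. An empty p-value does not show that a gene was silent, so whether such cells were present was not tested.

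3 sets of sequences are shown because the values are read beside them: the microRNA that the genotype concerns with its matches in the brakes' 3' UTRs, a promoter window with an E2F motif for each of the 2 brakes that hold one, and the Cdkn1a window with a p53 half-site pair. All are written 5′ to 3′ on the gene's strand. In the mature microRNAs, from RefSeq (GRCm38.p6), the capitals mark the seed, bases 2 to 8.
mmu-miR-9-5p: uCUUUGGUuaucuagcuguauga
mmu-miR-9-3p: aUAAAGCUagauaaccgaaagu

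Seed matches were searched in the longest 3' UTR that GENCODE M21 (GRCm38) gives for each of the 10 genes. The letters searched were ACCAAAG for miR-9-5p and AGCTTTA for miR-9-3p, and 3 genes held a match. The capitals mark the match.
Rbl1, miR-9-5p: gatgaatggtaACCAAAGttttattttta
Cdkn1c, miR-9-5p: tattgattattACCAAAGgcactagaaat
Cdkn1c, miR-9-3p: ccaaggtgtaaAGCTTTAaatcatttatg
Cdkn1b, miR-9-3p: atcacacctgtAGCTTTAgttgctttgtg

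The Rbl1 match lies at chr2:157146197-157146203 on the minus strand, the Cdkn1c matches at chr7:143458588-143458594 and chr7:143458802-143458808 on the minus strand, and the Cdkn1b match at chr6:134923499-134923505 on the plus strand. Of 15425 genes with a p-value and an annotated 3' UTR, 13.1 percent held the miR-9-5p letters and 11.8 percent the miR-9-3p letters. The genes that hold a match did not share a sign. Rbl1 was positive at 0.94 by the authors' deposited table, and Cdkn1b (-0.42) and Cdkn1c (-1.76) were negative by the authors' deposited table. Cdkn1c had no p-value, and neither Rbl1 nor Cdkn1b was called (Benjamini-Hochberg adjusted p = 0.138 and 0.726). A match is a run of letters, and whether miR-9 acts on it was not tested.

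Promoter windows, from 250 bases before to 50 bases after an annotated start, were given by RefSeq (GRCm38.p6) for 8 of the 10 genes in 11 windows, and not for Cdkn1c and Rb1. All motifs were searched on both strands, and each window with a match held 1 match of 1 motif. An E2F motif, searched as TTTCCCGC, TTTGGCGC, TTTCGCGC or TTTGCCGC, was found in 2 of the 11 windows, those of Rbl1 and of the upstream start of Cdkn2a. It occurs in 2.26 percent of all 32851 windows. The Rbl1 window is chr2:157204485-157204784 on the minus strand, with the match, in capitals, beginning 18 bases before the start site.
Rbl1: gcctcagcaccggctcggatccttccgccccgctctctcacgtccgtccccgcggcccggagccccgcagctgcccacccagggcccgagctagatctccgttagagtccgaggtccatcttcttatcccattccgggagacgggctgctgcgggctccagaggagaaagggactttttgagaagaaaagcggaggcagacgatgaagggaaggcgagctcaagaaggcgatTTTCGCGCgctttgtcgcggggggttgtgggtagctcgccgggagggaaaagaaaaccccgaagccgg

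The upstream Cdkn2a window, from which the p19Arf transcript starts, is chr4:89294570-89294869 on the minus strand, with the match beginning 99 bases before the start site.
Cdkn2a: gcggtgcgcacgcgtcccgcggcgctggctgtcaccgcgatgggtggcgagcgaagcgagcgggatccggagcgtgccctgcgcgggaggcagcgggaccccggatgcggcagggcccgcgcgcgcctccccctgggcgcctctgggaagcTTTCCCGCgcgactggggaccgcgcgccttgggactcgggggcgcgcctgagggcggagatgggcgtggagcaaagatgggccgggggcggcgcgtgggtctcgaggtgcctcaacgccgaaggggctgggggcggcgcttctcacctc

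A pair of p53 half-site cores, searched as CATG, 6 bases of any kind and CATG again, was found in the upstream window of Cdkn1a and in none of the other 10 windows, and occurs in 0.712 percent of all windows. This window is chr17:29090729-29091028 on the plus strand, with the match beginning 48 bases before the start site.
Cdkn1a: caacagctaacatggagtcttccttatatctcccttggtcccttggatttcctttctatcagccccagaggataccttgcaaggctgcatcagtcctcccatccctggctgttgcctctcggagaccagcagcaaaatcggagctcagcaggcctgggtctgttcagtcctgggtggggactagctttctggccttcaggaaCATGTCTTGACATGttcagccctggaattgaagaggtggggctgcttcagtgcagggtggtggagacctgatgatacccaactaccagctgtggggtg

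The cell cycle homology region, a motif of mitotic promoters searched as TTTGAA or TTCGAA, was found in the windows of Cdkn2b and Rbl2 and occurs in 19.2 percent of all windows. The FOXO motif GTAAACA was found in none of the 11 windows and occurs in 3.65 percent of all. Cdkn2c, with 2 windows, held none of the 4 motifs. No match says only that these letters are absent from the window.

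Of the 8 brakes with a p-value, 4 had positive and 4 negative values, and none was called. Over all genes with a p-value, 0.411 percent were called in either direction, 0.245 percent higher and 0.166 percent lower. At an adjusted p under 0.10 none of the 8 was called either, beside 0.968 percent of all genes. At an unadjusted p under 0.05, 2 of the 8 were higher, Rbl1 and Cdkn2c, and none was lower, where 3.87 percent of all genes were higher and 4.05 percent lower. The median log2 fold change of the 8 was -0.10, beside -0.09 over all genes with a p-value. The share of positive values over all those genes was 40.2 percent, and that of negative values 59.8 percent.

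**Figure D1:**
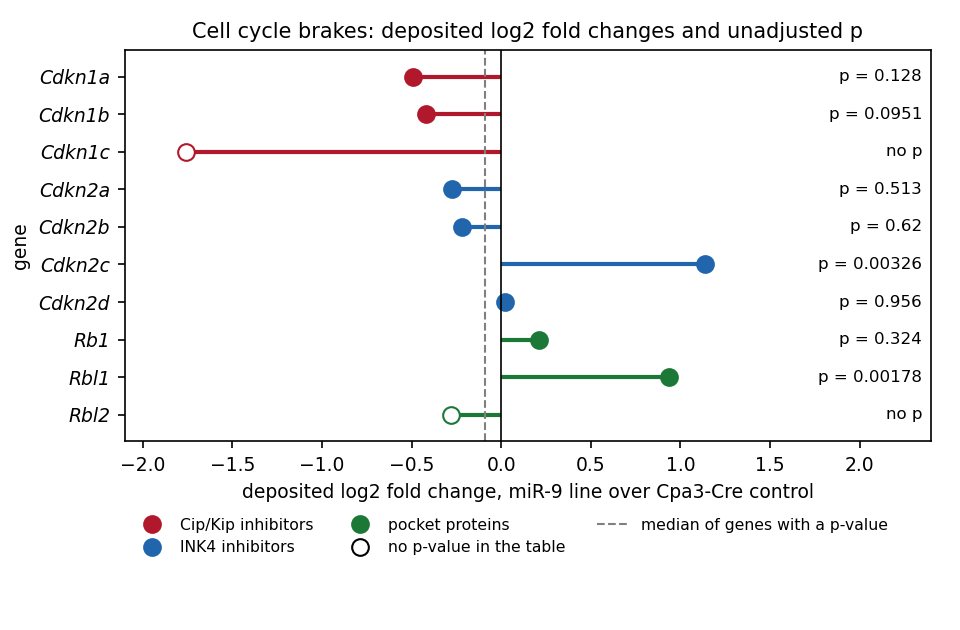
Deposited log2 fold change of each of the 10 genes (horizontal axis, miR-9 line over Cpa3-Cre control), coloured by family, with the deposited unadjusted p at the right. Open circles are the 2 genes with no p-value, Cdkn1c at -1.76 and Rbl2 at -0.28. The dashed line is the median of all genes with a p-value. Cdkn2c at 1.14 and Rbl1 at 0.94 stand farthest to the right.

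The Cip/Kip genes all had negative values. Cdkn1a, which encodes p21, the inhibitor that p53 induces, stood at -0.49 by the authors' deposited table, or 1.40-fold lower (p = 0.128, Benjamini-Hochberg adjusted p = 0.763). Its gene model has 4 exons on chromosome 17 from 29090979 to 29100722 (GRCm38, as all positions here), and 18.7 percent of tested genes had a lower log2 fold change. Cdkn1b, which encodes p27, the inhibitor that accumulates when mitogens are withdrawn, stood at -0.42 by the authors' deposited table, or 1.34-fold lower (p = 0.0951, adjusted p = 0.726). It has 2 exons on chromosome 6 from 134920401 to 134925513, and 22.9 percent of tested genes stood lower. Neither value passed the test, and both values lie below the median of all genes.

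Cdkn1c encodes p57, an imprinted inhibitor expressed from the maternal copy and known for keeping blood stem cells quiescent. It had the lowest value of the 10, -1.76 by the authors' deposited table, or 3.39-fold lower, and no p-value. Only 0.150 percent of tested genes stood lower. The p-value is empty for 5.78 percent of all gene models, and no source used here gives the reason. The spread behind the Cdkn1c value is therefore unknown, and it is no call. The gene lies on chromosome 7 from 143458350 to 143461050.

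The INK4 genes did not share a sign. Cdkn2c, which encodes p18, stood at 1.14 by the authors' deposited table, or 2.20-fold higher (p = 0.00326, adjusted p = 0.190). That was the highest value of the 10, ranking 412 of 24071 by p-value, and 99.0 percent of tested genes had a lower log2 fold change. Its gene model has 3 exons on chromosome 4 from 109660876 to 109667189. Cdkn2d, which encodes p19Ink4d, another INK4 protein, stood at 0.02 by the authors' deposited table, or 1.01-fold higher (p = 0.956, adjusted p = 0.996). Whether Cdkn2c and Cdkn2d differ from each other was not tested. Cdkn2d has 2 exons on chromosome 9 from 21288463 to 21291209.

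Cdkn2a and Cdkn2b lie side by side on the minus strand of chromosome 4, 11635 bases apart, the locus that is switched on in senescent cells and often lost in tumours. Cdkn2a stood at -0.27 by the authors' deposited table (p = 0.513, adjusted p = 0.926). Its row joins 2 products with separate first exons, p16Ink4a, from the 207-base exon at 89281986 to 89282192, and the p53 activator p19Arf, from the 320-base exon at 89294334 to 89294653. The value of one product therefore cannot be told from that of the other. Cdkn2b, which encodes p15, an inhibitor induced by TGF-beta, stood at -0.22 by the authors' deposited table (p = 0.620, adjusted p = 0.950). It spans 89306289 to 89311032. Both neighbours stood within 0.2 of the median of all genes, with p-values that miss the threshold, which does not show equal levels in the 2 genotypes.

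Among the pocket proteins, Rbl1 had the smallest p-value of the 8. Rbl1 encodes p107, which is itself an E2F target and restrains E2F4 and E2F5, and it stood at 0.94 by the authors' deposited table, or 1.91-fold higher (p = 0.00178, adjusted p = 0.138). It ranked 310 of 24071 by p-value, and 98.4 percent of tested genes had a lower log2 fold change. The gene model has 22 exons on chromosome 2 from 157145893 to 157204534, and its promoter window and seed match are shown above. Rb1, which encodes pRb, the founding pocket protein and tumour suppressor, stood at 0.21 by the authors' deposited table, or 1.16-fold higher (p = 0.324, adjusted p = 0.875). Rbl2, which encodes p130, the pocket protein of resting cells, stood at -0.28 by the authors' deposited table, or 1.21-fold lower, and had no p-value.

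Rb1 and Rbl2 share exonic bases with genes on the opposite strand. Rb1, on the minus strand of chromosome 14 from 73183673 to 73325822, shares 408 bases with Lpar6, a receptor gene inside it that stood at -0.76 by the authors' deposited table (p = 0.0282, adjusted p = 0.521). It shares 488 bases with Rcbtb2, which stood at -0.08 by the authors' deposited table (p = 0.749). Rbl2, on chromosome 8 from 91070057 to 91123844, shares 693 bases with Aktip, which stood at -0.18 by the authors' deposited table (p = 0.418). The libraries mark strand, but no source used here says whether counting did, and reads over these bases may then not be told apart.

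**Figure D2:**
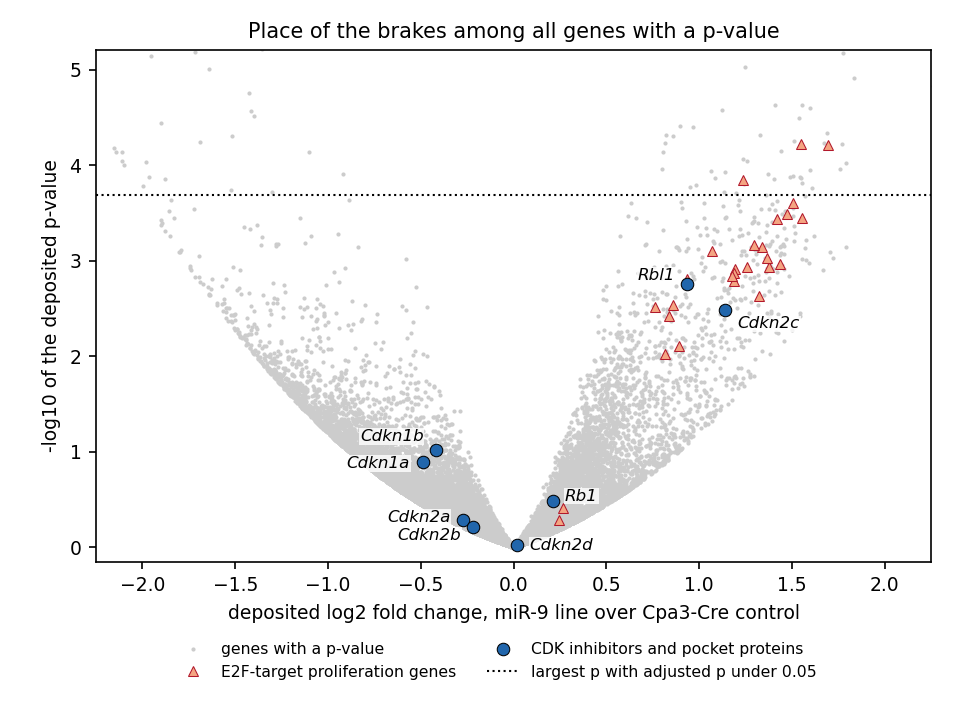
Each grey point is a gene with a p-value, by deposited log2 fold change (horizontal) and -log10 of the deposited p-value (vertical); blue circles are the 8 brakes with a p-value, triangles the E2F-target proliferation genes, and the dotted line the largest p whose adjusted value was under 0.05. Rbl1 and Cdkn2c lie among the triangles below the dotted line and the other 6 circles near the bottom; 31 genes lie outside the drawn range.

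The genes that the brakes hold back had mostly positive values. Of 28 proliferation genes known as targets of E2F or of the related MuvB and FoxM1 program, 27 had a p-value, and by the authors' deposited table all 27 were positive (median 1.23). Among them 3 rose: Cdc25c, the phosphatase that activates the mitotic kinase, at 1.69, Cdk1, the mitotic kinase, at 1.55, and Rrm1, a subunit of ribonucleotide reductase, at 1.23 by the authors' deposited table. Their Benjamini-Hochberg adjusted p-values were 0.0245, 0.0245 and 0.0396. Over all genes 0.245 percent were called higher. Rrm1 missed the threshold on unadjusted values that the design text names, 0.0001, and the other two passed it. With the stricter Benjamini-Yekutieli adjustment none of the 3 passed. With an unadjusted p under 0.05, 25 of the 27 were higher, beside 3.87 percent of all genes. The exceptions were Pcna, the replication clamp, at 0.24, and Tyms, thymidylate synthase, at 0.27 by the authors' deposited table. Ccna2, which encodes cyclin A2, stood at 1.56 by the authors' deposited table (adjusted p = 0.0657). Rbl1 and Cdkn2c fall inside the range of these 27 genes, 0.24 to 1.69, though below their median, and the other 6 brakes with a p-value fall below the range. Its lower end is the value of Pcna, and Rb1, at 0.21 by the authors' deposited table, stood just under it. Because the brakes and these genes come from the same samples, their values are not independent. RefSeq gave 23 windows for 22 of the 28 genes. Of the 23 windows, 7 held the E2F motif and 10 the cell cycle homology region, beside 2.26 and 19.2 percent of all windows.

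Markers of another blood cell type, red cell precursors, were also mostly positive. Of 5 erythroid markers, 4 were positive (median 0.82) by the authors' deposited table; none was called and 1 had an unadjusted p under 0.05. Hbb-bs, an adult beta globin, stood at 1.09 (p = 0.0405) and Klf1, the erythroid transcription factor, at 0.94 (p = 0.0769) by the authors' deposited table. Markers of 2 other lists had mostly negative values. Of 5 progenitor markers with a p-value 4 were negative (median -0.31), and Gfi1, a transcriptional repressor, fell, 4.00-fold by the authors' deposited table (adjusted p = 1.91e-06). All 4 lymphocyte markers with a p-value were negative (median -0.52); none was called or had an unadjusted p under 0.05. Over all tested genes, 40.2 percent were positive and 59.8 percent negative, with a median of -0.09. The part of these marker lists in the values of Rbl1, Cdkn2c and the proliferation genes was not tested.

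E2F and DP factors, not all of them partners of the pocket proteins, were positive in 7 of 9 with a p-value. Their median was 0.58, and none was called. Over all tested genes 40.2 percent were positive. E2f8, a late repressor of the family, stood at 0.97 and E2f3, an activator, at 0.79 by the authors' deposited table (p = 0.0135 and 0.000787, adjusted p = 0.397 and 0.0886). The 2 with negative values were E2f5 (-0.41), a partner of p107 and p130, and Tfdp2 (-0.36), a DP subunit, by the authors' deposited table. With an unadjusted p under 0.05, 5 of the 9 were higher and none lower, beside 3.87 and 4.05 percent of all genes. Of the MuvB, B-Myb and FoxM1 genes, which join p107 or p130 in resting cells or drive mitotic genes in dividing ones, 6 of 7 were positive with a median of 0.25. None was called, and 3 were higher and none lower at an unadjusted p under 0.05, beside the same 3.87 and 4.05 percent. The 2 highest by the authors' deposited table, Foxm1 (1.37, adjusted p = 0.101) and Mybl2 (1.22, adjusted p = 0.0612), encode the factors of dividing cells. Whether the MuvB subunits differ from each other was not tested. Lin9, named here after its value was seen, stood at 0.80 by the authors' deposited table (p = 0.0113, adjusted p = 0.360). Lin37 (0.03) and Lin52 (-0.12) stood lowest by the authors' deposited table.

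Of 12 genes in a list of G1 cyclins, CDKs and their activators, 8 were positive with a median of 0.38, and none was called. Not all are direct targets of the inhibitors, since the list also holds the activators Cdk7, Ccnh, Mnat1 and Cdc25a. Over all tested genes 40.2 percent were positive. Ccne1, which encodes cyclin E1, the partner of CDK2, stood at 1.52 (p = 0.000512, adjusted p = 0.0771) and Cdk6, an INK4 target, at 0.86 (p = 0.00112, adjusted p = 0.109) by the authors' deposited table. The D-type cyclin gene Ccnd1 (-0.35) and Cdk7 (-0.34), of the CDK-activating kinase, stood lowest by the authors' deposited table. With an unadjusted p under 0.05, 6 of the 12 were higher and none lower, beside 3.87 and 4.05 percent of all genes.

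p27, p21 and p57 are also controlled as proteins, by ubiquitin ligases whose RNA was measured here. Of 12 turnover genes with a p-value 8 were positive, beside 40.2 percent of all genes, and their median was 0.11. Of the 12, 1 rose, where 0.245 percent of all genes were called higher. This was Cks1b, the cofactor with which SKP2 recognises p27, at 1.44 by the authors' deposited table (2.72-fold, p = 7.12e-05, Benjamini-Hochberg adjusted p = 0.0268), and it did not pass with Benjamini-Yekutieli adjustment. Dtl, which targets p21 in S phase, stood at 1.25 (adjusted p = 0.166) by the authors' deposited table. Skp2, named here for its role after its value was seen, stood at 0.56 by the authors' deposited table (p = 0.0619, adjusted p = 0.669). Fbxl12 (-0.57) and Cul4a (-0.23) stood lowest by the authors' deposited table. Protein levels of the inhibitors were not measured.

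**Figure D3:**
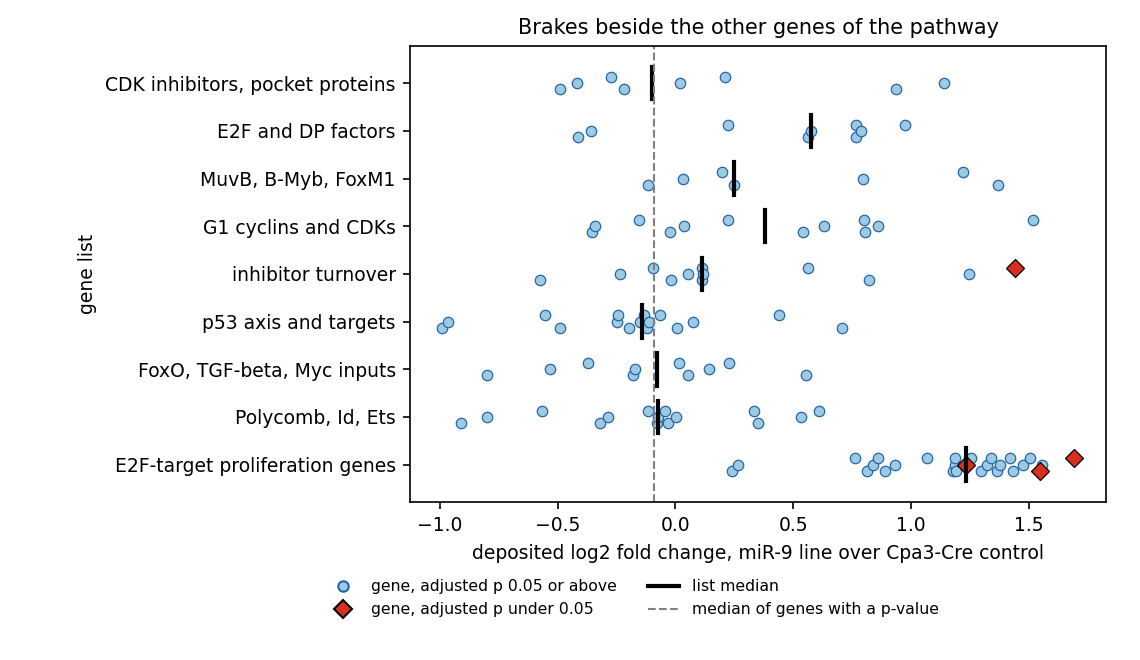
Deposited log2 fold changes (horizontal axis) of the 8 brakes with a p-value, top row, and of the 8 gene lists of their pathway; each circle is a gene, diamonds are genes with an adjusted p under 0.05, black bars are list medians and the dashed line is the median of all genes with a p-value. The bottom row, the proliferation genes, has its median at 1.23, and the brakes have theirs at -0.10.

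The p53 axis, which acts through Cdkn1a, was negative in 12 of 16 genes with a p-value, with a median of -0.14, and none was called. Over all tested genes, 59.8 percent were negative and the median was -0.09. Trp53 itself stood at 0.44 (p = 0.105) and the target Perp at 0.70 (p = 0.159) by the authors' deposited table. The p53 targets Eda2r, a TNF receptor family gene (-0.99, p = 0.0186), and Btg2, an antiproliferative gene (-0.97, p = 0.0734), stood lowest by the authors' deposited table. With an unadjusted p under 0.05, 2 of the 16 were lower and none higher, beside 4.05 percent of all genes lower.

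Regulators upstream of the other inhibitors were divided. Of 10 FoxO, TGF-beta and Myc genes with a p-value, 5 were positive and 5 negative (median -0.08). None was called, and 1 was higher and 2 were lower at an unadjusted p under 0.05, beside 3.87 and 4.05 percent of all genes. Myc, which represses Cdkn1a and Cdkn2b, stood at 0.55 (p = 0.0122) and its partner Max at 0.23 by the authors' deposited table. Smad3, which carries the TGF-beta signal to Cdkn2b, stood at -0.80 (p = 0.00293, adjusted p = 0.183), and Foxo4, of the factors that activate Cdkn1b, at -0.53 (p = 0.00880) by the authors' deposited table. Of 15 Polycomb, Id and Ets genes, regulators of the INK4 locus, 10 were negative with a median of -0.07. These values stand near those of all tested genes, of which 59.8 percent were negative with a median of -0.09. None of the 15 was called. At an unadjusted p under 0.05, 1 was higher and 1 lower, near the 3.87 and 4.05 percent of all genes. Ezh2, the Polycomb methyltransferase, stood at 0.61 (p = 0.0464) and Ets1 at 0.53, while Cbx7, a Polycomb repressor of Cdkn2a, stood at -0.91 (p = 0.0151) and Id1 at -0.80 by the authors' deposited table.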

How the data were processed

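RNA of 5 samples, grouped by title, was sequenced after ribosomal RNA removal as strand-marked paired 50-base reads, per the labels' protocols. Among the tools named per the submitters' processing notes are STAR and HTSeq, then DESeq2, DESeq and Cuffdiff, with the builds GRCm38 and mm10 and no versions or roles. The design text, per the labels, names DESeq2 for the tests and a p-value of 0.0001 as the threshold. The authors deposited a log2 fold change, the same fold change on a signed linear scale (equal within 0.001 in 100 percent of rows) and an unadjusted p-value per gene. No source used here states the filters, the model or whether fold changes were shrunken, which would make those of scarce genes too small. The table's 5 columns of values per library match no label and were not used, so the planned count test and leave-one-out fits were not run.

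Benjamini-Hochberg adjustment (statsmodels 0.14.6, Python 3.11.15) was applied to the 24071 deposited p-values and tested on simulated data. No set test was run. Lists are described by counts and medians over members with a p-value. Named genes were all 10 members, every called list gene, and the 2 highest and 2 lowest of each list. Skp2 and Lin9 were named besides, after their values were seen. The members and lists were chosen with earlier results of these data known. Gene class came from GENCODE M21 by symbol and chromosome (23683 rows).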

Additional observations from a re-analysis of the deposited data

How the results depend on the processing

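None of the 8 brakes with a p-value was called at an adjusted p under 0.10, at an unadjusted p under 0.0001, with every row adjusted (an empty p-value counted as 1), with protein-coding rows only, or with Benjamini-Yekutieli adjustment. Over the 3 other adjustments the adjusted p ranged from 0.101 to 1 for Rbl1 and from 0.142 to 1 for Cdkn2c. The count of called genes was 99 over the whole table, 4 over the pathway lists and 3 over the proliferation list. At an adjusted p under 0.10 these counts were 233, 15 and 11, and at an unadjusted p under 0.0001 they were 72, 3 and 2. With Benjamini-Yekutieli adjustment they were 24, 0 and 0, and none of the 25 proliferation genes with an unadjusted p under 0.05 then passed. With protein-coding rows only, where fewer genes are tested, 9 pathway list genes and 7 proliferation genes passed. Centring log2 fold changes on the median of all genes, an alternative chosen after seeing the data, changed the direction of none of the 10 brakes. No paired analysis was possible because the columns of values per library match no sample's labels. Tools other than the authors' own, filters on low counts and leaving out samples were not run for the same reason.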

Other observations

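Other genes named for CDK inhibitors or for binding pRb were looked up by symbol after the table had been seen. Cdkn3, a phosphatase of CDK1 and CDK2 outside the Cip/Kip and INK4 families that is itself expressed in mitosis, stood at 1.42 by the authors' deposited table (p = 0.000241, Benjamini-Hochberg adjusted p = 0.0557). Cdkn2aip, whose product binds p19Arf, stood at -0.05 (p = 0.835) and its relative Cdkn2aipnl at 0.40 (p = 0.0638) by the authors' deposited table. The pRb-binding histone chaperone genes Rbbp7 and Rbbp4 stood at 0.47 (p = 0.0570) and 0.20 (p = 0.290) by the authors' deposited table. Of lower value were Rbbp9 (-0.47, p = 0.0900), the autophagy gene Rb1cc1 (-0.41, p = 0.0626) and Rbbp8nl (-0.22, p = 0.664) by the authors' deposited table. In all, 11 genes were looked up, 6 positive and 5 negative, with none called and Cdkn3 alone at an unadjusted p under 0.05. Over all genes, 3.87 percent were higher and 4.05 percent lower at that level.

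Genes around the brakes were read as neighbours. Of a list of genes near Cdkn1c on chromosome 7, many of them imprinted, 7 had a p-value, 5 positive and 2 negative. None of the 7 was called. At an unadjusted p under 0.05, 1 was higher and 1 lower, beside 3.87 and 4.05 percent of all genes. H19, an imprinted noncoding RNA expressed from the maternal copy, stood at -1.20 (p = 0.0254, adjusted p = 0.504) and Slc22a18 at -0.04 by the authors' deposited table. Tssc4 stood at 0.49 (p = 0.0328) and Nap1l4 at 0.28 (p = 0.0866) by the authors' deposited table. Beside the INK4 genes, Mtap (0.28) and Dmrta1 (-0.14) lie around Cdkn2a and Cdkn2b, Faf1 (0.15) lies beside Cdkn2c and Ap1m2 (-0.83, p = 0.0928) near Cdkn2d, by the authors' deposited table. None of the 4 was called or had an unadjusted p under 0.05.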
